A study of Zea mays with 12 samples.

Results

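The 35 genes described here are the calcineurin B-like (CBL) calcium sensors and the CBL-interacting protein kinases (CIPKs) of maize. They were taken from the 37385 genes listed as every gene whose description contains CBL-interacting, calcineurin B-like or CIPK, or whose name begins with CBL or CIPK. Descriptions and names alone were used, and 8 of the genes are sensors and 27 are kinases. Total RNA came from roots of 40-day-old DengHai605 plants. There were 12 libraries in 4 groups of 3, which were potassium (K) deficiency, nitrogen (N) deficiency, phosphorus (P) deficiency and a control with normal N, P and K levels. The libraries of each group carry the labels 1_3, 4_6 and 7_9. The labels do not tie them to separate plants, so p-values measure the spread between these libraries, which may be technical.

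CBL proteins are small calcium sensors with EF-hand calcium-binding sites. A calcium-loaded CBL binds the regulatory tail of a CIPK, releases the kinase from self-inhibition and brings it to a membrane, where the pair phosphorylates transport proteins. In Arabidopsis roots, CIPK23 with CBL1 or CBL9 activates the potassium channel AKT1 and the potassium transporter HAK5 and acts on the nitrate transporter NRT1.1 and on ammonium transporters. CIPK24 (SOS2) with CBL4 (SOS3) activates the sodium/proton exchanger SOS1, and CBL2 and CBL3 work at the vacuole membrane. The maize descriptions are the annotation's own, 5 different kinase genes are all described as kinase 15, and a shared number does not show a shared role.

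Levels are given in FPKM, read fragments scaled to transcript length and library depth, and SDs are over the 3 libraries of a group. Reads recovered per gene from the deposited group means summed to 15705055 to 18465979 per library. The sums leave out genes that could not be recovered, which were in the deficient groups (at least 99.8% recovered, 100% in the control). A gene was tested when it reached 0.5 FPKM in at least 3 libraries. Of the 35 genes, 34 did. Log2 fold changes are on the log2(FPKM + 1) scale and understate the change of low genes, and folds are ratios of mean FPKM. A gene passed at an adjusted p under 0.05 in limma over all 24311 genes tested. The 3 comparisons with the control share the same 3 control libraries. Root markers were present (9 of 9 reached 0.5 FPKM), and the root hair gene rth3 averaged 88.8, 72.6 and 57.1 FPKM under K, N and P deficiency and 93.8 FPKM in the control. Summed FPKM of the root markers was 429 to 514, 546 to 1465 and 268 to 568 under K, N and P deficiency and 380.4 to 576 in the control. The markers differed among themselves. The nitrate transport genes NAR2.1 and nrt2 averaged 320.2 and 55.5 FPKM under N deficiency, against 104 and 2.35 FPKM in the control, and the root cap genes RCP1 and rcph2 averaged 282 and 240.4 FPKM, against 83.2 and 135 FPKM. Summed FPKM of 19 leaf photosynthesis genes, of which 12 reached 0.5 FPKM, was 13.6 to 17, 6.25 to 10.1 and 12.4 to 18.6 under K, N and P deficiency and 18.9 to 36.7 in the control. LOC100191715, a chlorophyll-binding protein gene, averaged 18.8 FPKM in the control and 7.07, 2.30 and 6.70 FPKM under K, N and P deficiency. Not all leaf genes went this way. ssu1 averaged 1.42 FPKM in the control and 4.03, 2.18 and 1.42 FPKM under K, N and P deficiency. lhcb3 averaged 0.347 FPKM in the control and 1.46 FPKM under P deficiency. The summed FPKM of 30 seed or embryo genes, of which 18 were at 0 in all libraries, was 1.78 to 4.78, 2.32 to 4.18 and 3.04 to 3.19 under K, N and P deficiency, and 31.7 to 68.6 in the control. A single gene, the 16 kDa oleosin, carried most of the control sum, with a mean of 42.3 FPKM in the control and 1.89, 0.184 and 1.12 FPKM under K, N and P deficiency, while glb3 was at 0.757 FPKM in the control and 1.21, 1.68 and 1.15 FPKM under deficiency. The part of these marker differences in the results on sensors and kinases was not tested. K deficiency library 7_9 listed 11374 genes at 0, against 10049 to 10457 in the other libraries. In bulk RNA, fewer cells of a type and less RNA per cell cannot be told apart.

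Of the 26 tested kinase genes, 13 fell and 1 rose in P deficiency, 10 fell and 1 rose in N deficiency, and 3 passed in K deficiency, all lower. With the 8 sensors included, 15 of the 34 tested genes fell and 1 rose in P deficiency, 12 fell and 2 rose in N deficiency, and 3 fell and 1 rose in K deficiency. Of all tested genes, 23.4% passed in P deficiency (10.4% lower, 13.0% higher), 19.0% in N deficiency (9.33% lower, 9.63% higher) and 8.72% in K deficiency (3.89% lower, 4.83% higher). The balance over all genes turned with the scaling. Under median-ratio scaling 3165 genes were lower and 3124 higher for P, 2593 and 2394 for N and 1241 and 1032 for K deficiency, and on recovered reads 3546 and 3283, 2826 and 2661, and 1410 and 1096. The members' split was 17 lower and 2 higher for P, 11 and 1 for N and 3 and 1 for K deficiency under median-ratio scaling, and 17 and 2, 12 and 3, and 6 and 2 on recovered reads. The members' median log2 fold change was -0.31 for P, -0.32 for N and -0.04 for K deficiency, and that of all tested genes was 0.08, 0.04 and 0.07 in the same order. Groups did not overlap for 18 genes lower and 4 higher in P deficiency, 12 lower and 4 higher in N deficiency, and 9 lower and 4 higher in K deficiency. Among all tested genes non-overlap was found in 18.0% lower and 21.2% higher for P, 16.5% and 17.7% for N, and 11.1% and 16.8% for K deficiency. The counts rest in part on single libraries. Leaving out control replicate 1_3 left 9 calls for P, 5 for N and 1 for K deficiency. For P deficiency there were 10 without its replicate 1_3, and for N deficiency 9 without its replicate 1_3 and 6 without its replicate 4_6. For K deficiency limma gave 0 calls when its replicate 1_3 or control replicate 4_6 was left out, with 10 members at an unadjusted p under 0.05 in each case. It gave 2 calls when K deficiency replicate 4_6 or replicate 7_9 was left out. The summed FPKM of the 27 kinases averaged 1282 ± 196 under K deficiency, 1249 ± 217 under N deficiency and 1103 ± 79.2 under P deficiency, against 1504 ± 261 in the control (SD, n = 3 each). For the 8 sensors the sum averaged 107 ± 7.11, 98.9 ± 6.45 and 84.5 ± 3.87 under K, N and P deficiency, against 106 ± 9.95 in the control.

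**Figure D1:**
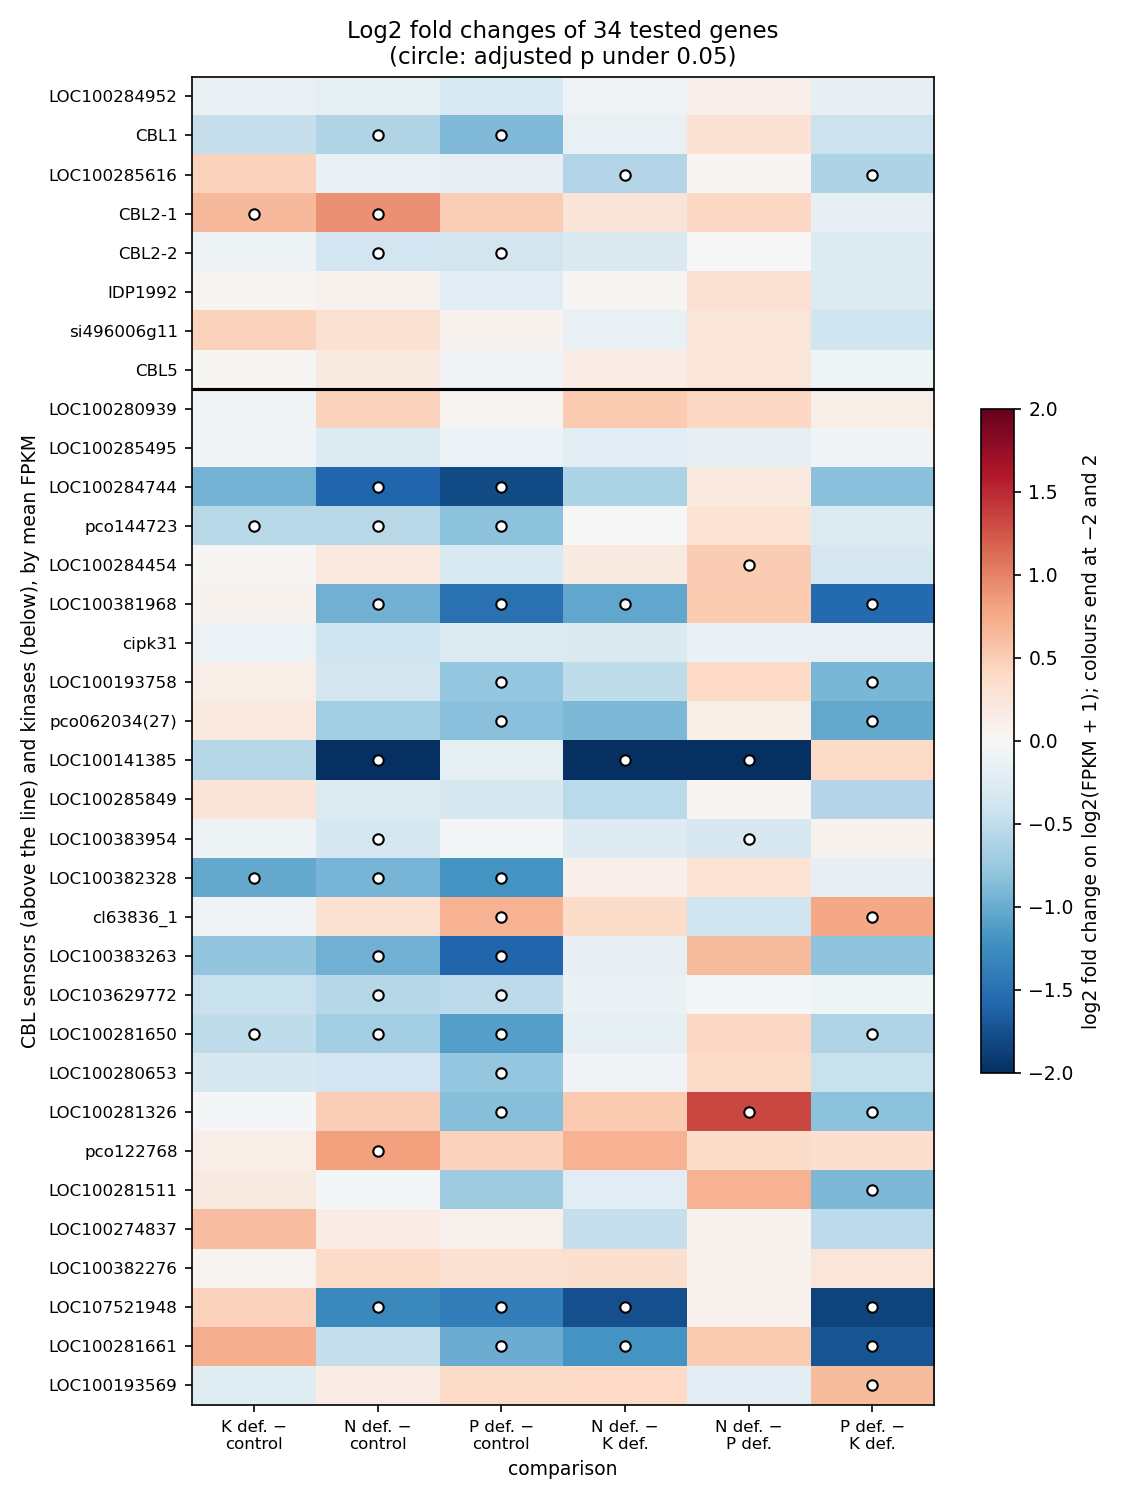
Map of log2 fold changes on the log2(FPKM + 1) scale for the 34 tested genes (rows) in the 6 comparisons (columns), with sensors above the line and kinases below it, each ordered by mean FPKM. Blue is lower and red is higher in the first-named group, colours end at -2 and 2, and circles mark an adjusted p under 0.05. Circles in blue rows gather in the N and P deficiency columns (12 and 15), and LOC100141385 stands out in the columns of N deficiency.

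The 8 sensor genes were expressed at moderate levels, and their mean over 12 libraries ran from 5.41 FPKM for CBL5 to 23.6 FPKM for LOC100284952, described as calcineurin B-like protein 9. One sensor gene, CBL2-1 (described as calcineurin B-like protein 3), was higher under deficiency. CBL2-1 stood at 18.7, 16 and 14.6 FPKM in N deficiency, against 7.13, 7.64 and 10.2 FPKM in the control. In K deficiency it stood at 15.7, 13.8 and 11.3 FPKM and in P deficiency at 12.1, 13.7 and 10.3 FPKM. Every deficient library lay above every control library. The rise was 1.97-fold in N deficiency (log2 0.91 ± 0.17 SE, adjusted p = 0.00318), and it passed in all 15 alternatives there. In K deficiency it was 1.63-fold (adjusted p = 0.0361), lost without K deficiency replicate 1_3 or 4_6 or control replicate 1_3 or 4_6, with an adjusted p of up to 0.145. The authors' deposited table did not call that rise (adjusted p = 0.0771). In P deficiency it did not pass (log2 0.49 ± 0.17, adjusted p = 0.0544), but it did under median-ratio scaling, on recovered reads and without control replicate 7_9.

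CBL1 moved the other way. It stood at 15.1, 16.3 and 16.5 FPKM in P deficiency and 19.9, 17.1 and 22.6 FPKM in N deficiency, against 36.5, 25.8 and 29.8 FPKM in the control. In K deficiency the values were 21.9, 23.8 and 20.2 FPKM. All 9 deficient libraries were below the lowest control library. CBL1 fell by 0.89 ± 0.14 on the log2 scale in P deficiency (1.92-fold lower, adjusted p = 0.00184), in all 15 alternatives. In N deficiency it fell by 0.60 ± 0.14 (adjusted p = 0.0138), a call lost without control replicate 1_3 or N deficiency replicate 4_6, with an adjusted p of up to 0.0637. That fall also did not pass in the authors' deposited table (adjusted p = 0.059). In K deficiency the log2 difference was -0.46 ± 0.14 and did not pass (adjusted p = 0.0785).

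CBL2-2, the other gene whose listed name begins with CBL2, was lower by a smaller ratio than CBL1. It stood at 7.74, 6.43 and 7.0 FPKM under N deficiency and 6.76, 7.90 and 6.69 FPKM under P deficiency, against 9.88, 8.36 and 10.4 FPKM in the control. Neither deficiency overlapped the control, while K deficiency, at 8.54, 9.56 and 8.37 FPKM, did. The gene was 1.35-fold lower under N deficiency (adjusted p = 0.0487) and 1.34-fold lower under P deficiency (adjusted p = 0.0471), both at the threshold. Both calls were lost when control replicate 1_3 or 7_9 was left out. The N deficiency call was also lost without any 1 of its own libraries (adjusted p up to 0.164), and the P deficiency call without its replicate 1_3 or 7_9 (up to 0.143). Neither passed in the authors' deposited table (adjusted p = 0.235 for N and 0.174 for P deficiency).

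The other 5 sensor genes passed in no comparison with the control. LOC100284952 averaged 23.9 ± 0.75 FPKM under K, 22.8 ± 2.07 under N and 21.2 ± 0.63 under P deficiency, against 26.3 ± 1.4 FPKM in the control. Its P deficiency libraries lay below the control and just missed the threshold (log2 -0.30 ± 0.10, adjusted p = 0.0529), and they passed under median-ratio scaling, with no filter on low values and on recovered reads. LOC100285616 is described as calcineurin B-like protein 4 and listed in RefSeq as CBL8. It stood at 18.6, 19.1 and 16 FPKM under K deficiency, 14.6, 8.69 and 12.1 FPKM under N deficiency and 12.2, 11.8 and 9.96 FPKM under P deficiency, against 11.4, 13.1 and 13.8 FPKM in the control. Its K deficiency libraries were above all others, but the difference from the control did not pass (log2 0.46 ± 0.17, adjusted p = 0.126). IDP1992 (RefSeq CBL6), si496006g11 (described as calcineurin B-like2) and CBL5 lay between 3.75 and 9.49 FPKM in every library. Their groups overlapped in each comparison with the control. Of the 3, si496006g11 passed for K and N deficiency when control replicate 7_9 was left out.

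**Figure D2:**
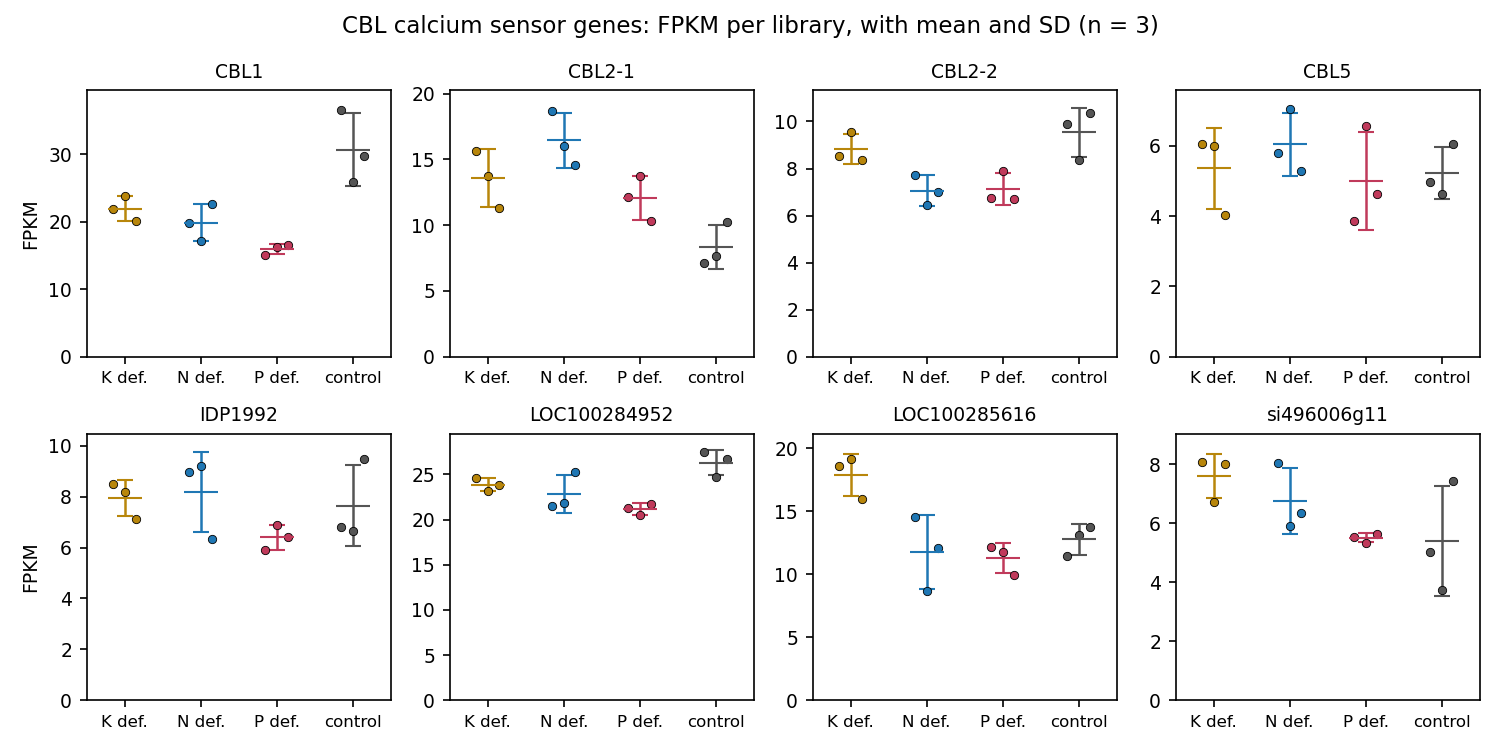
FPKM of the 8 CBL sensor genes in each library (points) with group mean and SD (bars, n = 3), for K, N and P deficiency and the control, on linear axes from 0. CBL2-1 is higher in all deficient libraries than in the control, CBL1 is lower, and LOC100285616 is highest in K deficiency, at 16 to 19.1 FPKM.

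Among the kinases, LOC100141385 had the largest difference of any member on the log2 scale. It stood at 1.3, 2.66 and 1.45 FPKM in N deficiency, against 24.0, 25.1 and 23.0 FPKM in the control. In K deficiency it stood at 16.6, 13.4 and 17.5 FPKM and in P deficiency at 18.2, 19.7 and 25.6 FPKM. N deficiency libraries were thus well apart from the other 9. The reads behind the values were 79, 164 and 88 in N deficiency and 1514, 1583 and 1473 in the control. The gene fell by 3.19 ± 0.19 on the log2 scale in N deficiency (13.3-fold lower, adjusted p = 1.55e-06), and passed in all 15 alternatives. N deficiency was also lower than K deficiency (8.80-fold, adjusted p = 1.13e-05) and than P deficiency (11.8-fold, adjusted p = 5.80e-06), each in all 14 alternatives. Against the control, K deficiency did not pass (log2 -0.58 ± 0.19, adjusted p = 0.0864), although it did with a pseudocount of 10 and on recovered reads. The gene is described only as a CBL-interacting protein kinase. It is 1 of 9 members that the deposited annotation places in the autophagy pathway.

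LOC100381968, a putative CBL-interacting kinase, was lower in N and P deficiency, while K deficiency overlapped the control. It stood at 19.6, 29.4 and 23.5 FPKM in P deficiency and 29.1, 31.4 and 45.0 FPKM in N deficiency, against 72.7, 65.1 and 68.1 FPKM in the control. In K deficiency it stood at 72.6, 83.1 and 62.1 FPKM, around the control values. The fall was 2.84-fold in P deficiency (adjusted p = 0.000383) and 1.95-fold in N deficiency (adjusted p = 0.0044), each in all 15 alternatives. Set directly against K deficiency, it was 3.0-fold lower in P deficiency (adjusted p = 0.00115) and 2.06-fold lower in N deficiency (adjusted p = 0.00557), each in all 14 alternatives.

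A pair of neighbouring kinase genes was lower together. LOC100281650 (described as kinase 15) and LOC100383263 (described as kinase 10) follow each other in the RefSeq gene order of assembly Zm-B73-REFERENCE-NAM-5.0 and share the older gene name GRMZM2G315769 there. How reads were divided between them by the authors is not stated, so their values may not be independent. LOC100281650 stood at 4.83, 5.03 and 4.16 FPKM in P deficiency and 7.16, 6.44 and 5.96 FPKM in N deficiency, against 12.6, 10.9 and 9.94 FPKM in the control. It fell 2.38-fold in P deficiency (adjusted p = 0.000193) and 1.71-fold in N deficiency (adjusted p = 0.00318), each in all 15 alternatives. In K deficiency, with 7.23, 8.38 and 7.10 FPKM, it was 1.47-fold lower (adjusted p = 0.0332), a call lost without K deficiency replicate 1_3 or 7_9 or control replicate 1_3 or 4_6, with an adjusted p of up to 0.143. That K deficiency difference did not pass in the authors' deposited table (adjusted p = 0.0557).

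LOC100383263 stood at 4.93, 3.52 and 3.90 FPKM in P deficiency and 5.59, 6.78 and 8.46 FPKM in N deficiency, against 17, 12.9 and 13.3 FPKM in the control. It fell 3.5-fold in P deficiency (adjusted p = 0.00084), in all 15 alternatives, and 2.07-fold in N deficiency (adjusted p = 0.013), lost without control replicate 1_3 or N deficiency replicate 1_3 at an adjusted p of up to 0.0614. Its K deficiency libraries, at 5.36, 7.90 and 11.2 FPKM, also lay below the control, and the difference just missed the threshold (log2 -0.79 ± 0.23, adjusted p = 0.0555). It passed there without K deficiency replicate 7_9, with a pseudocount of 10, on recovered reads and in the authors' deposited table.

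The most abundant kinase gene among those that passed was LOC100284744, also described as kinase 15, and its control libraries varied widely. It stood at 54.1, 54.0 and 83.2 FPKM in P deficiency and 58.7, 84.1 and 75.0 FPKM in N deficiency, against 217, 377 and 127 FPKM in the control. In K deficiency the values were 89.7, 138 and 115 FPKM. N and P deficiency libraries were all below the lowest control library, and K deficiency overlapped it. The gene fell 3.77-fold in P deficiency (adjusted p = 0.00451) and 3.31-fold in N deficiency (adjusted p = 0.00739), and both calls held when any 1 library was left out. The authors' deposited table did not call it, with an adjusted p of 0.16 for N and 0.0972 for P deficiency. In K deficiency the log2 difference was -0.95 ± 0.34 (adjusted p = 0.115), and it passed without control replicate 7_9.

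pco144723 is described as kinase 23, the number of the Arabidopsis kinase that acts on potassium channels and nitrate transporters. It stood at 86.7, 86.9 and 101 FPKM in P deficiency, 109, 90.2 and 135 FPKM in N deficiency and 101, 110.0 and 119 FPKM in K deficiency, against 170.0, 161 and 155 FPKM in the control. All deficient libraries were below the control libraries. The fall was 1.77-fold in P deficiency (adjusted p = 0.00386, in all 15 alternatives), 1.45-fold in N deficiency (adjusted p = 0.0259) and 1.47-fold in K deficiency (adjusted p = 0.0448). The N deficiency call was lost without N deficiency or control replicates 1_3 or 4_6 (adjusted p up to 0.107), and the K deficiency call without any 1 of its 6 libraries (up to 0.149). Neither call passed in the authors' deposited table (adjusted p = 0.156 for N and 0.064 for K deficiency). No direct comparison of deficiencies passed, with log2 differences of 0.00 for N minus K, 0.27 for N minus P and -0.27 for P minus K deficiency (SE 0.15 each).

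**Figure D3:**
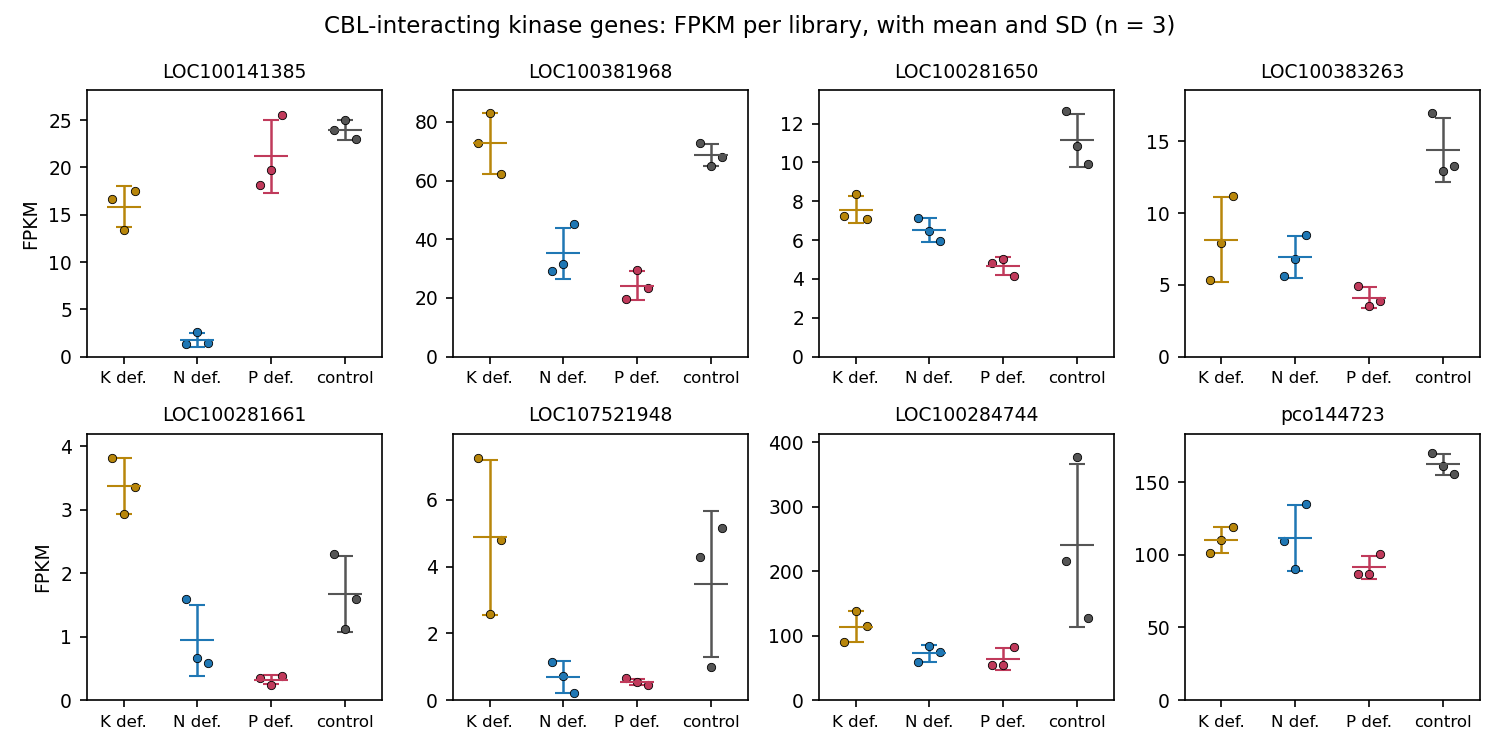
FPKM of 8 kinase genes in each library (points) with group mean and SD (bars, n = 3), on linear axes from 0. LOC100141385 is at 1.3 to 2.66 FPKM in N deficiency, LOC100381968 is low in N and P deficiency, and the neighbours LOC100281661 and LOC107521948 are highest on average in K deficiency.

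LOC103629772 is described as CBL-interacting protein kinase 24, the number of the Arabidopsis kinase SOS2 of sodium export. It stood at 8.05, 6.09 and 7.10 FPKM under N deficiency, 6.63, 7.21 and 8.11 FPKM under P deficiency and 8.74, 6.67 and 8.06 FPKM under K deficiency, against 13, 10.2 and 9.85 FPKM in the control. All deficient libraries were below the control libraries. The gene was 1.55-fold lower under N deficiency (adjusted p = 0.0213) and 1.5-fold lower under P deficiency (adjusted p = 0.0283). Under K deficiency it did not pass (log2 -0.44 ± 0.15, adjusted p = 0.0972), except under median-ratio scaling and on recovered reads. Both calls were lost when control replicate 1_3 was left out. The N deficiency call was also lost without its replicate 4_6 (adjusted p up to 0.0974), and the P deficiency call without its replicate 1_3 or 4_6 (up to 0.12). For P deficiency the gene did not pass in the authors' deposited table (adjusted p = 0.0591).

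LOC100382328, a putative CBL-interacting kinase, was lower in all 3 deficiencies. Its values were 5.36, 7.63 and 8.27 FPKM in P deficiency, 5.56, 8.65 and 13.1 FPKM in N deficiency and 6.10, 9.60 and 8.67 FPKM in K deficiency, against 18.3, 21.3 and 13.3 FPKM in the control. It was 2.49-fold lower in P deficiency (adjusted p = 0.0122, in all 15 alternatives), 1.94-fold lower in N deficiency (adjusted p = 0.0379) and 2.17-fold lower in K deficiency (adjusted p = 0.0432). The highest deficient library, at 13.1 FPKM, was just under the lowest control library. Both the N and the K deficiency call were lost under median-ratio scaling and when control replicate 1_3 or 4_6 was left out. The N deficiency call was also lost without its replicate 1_3 or 4_6 (adjusted p up to 0.133), and the K deficiency call without any 1 of its libraries (up to 0.15). For N deficiency the gene did not pass in the authors' deposited table (adjusted p = 0.0849).

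Another neighbouring pair of kinase genes, LOC100281661 (described as kinase 15) and LOC107521948 (described as kinase 4), had its highest group means in K deficiency and its lowest in P deficiency. LOC100281661 stood at 3.82, 2.94 and 3.36 FPKM under K deficiency, 1.59, 0.661 and 0.585 FPKM under N deficiency and 0.347, 0.246 and 0.374 FPKM under P deficiency, against 2.31, 1.13 and 1.59 FPKM in the control. All K deficiency libraries were above, and all P deficiency libraries below, those of the control. P deficiency was 5.19-fold lower than the control (adjusted p = 0.00751, in all 15 alternatives), 14 to 20 reads per library against 68 to 140. K deficiency did not pass against the control (log2 0.73 ± 0.21, adjusted p = 0.0534), though it did on recovered reads, without control replicate 1_3 and in the authors' deposited table. P deficiency was 10.5-fold lower than K deficiency (adjusted p = 0.00114) and N deficiency 3.57-fold lower than K deficiency (adjusted p = 0.00426), each in all 14 alternatives.

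LOC107521948 spread more within groups. It stood at 7.25, 2.58 and 4.81 FPKM under K deficiency, 1.15, 0.714 and 0.201 FPKM under N deficiency and 0.651, 0.534 and 0.445 FPKM under P deficiency, against 4.28, 0.995 and 5.15 FPKM in the control. N and P deficiency were below every K deficiency library, N deficiency overlapped the low control replicate 4_6, and its own replicate 7_9 was the lowest of all. K deficiency overlapped the control, and neither K deficiency against the control nor N against P deficiency passed. P deficiency was 8.98-fold lower than K deficiency (adjusted p = 0.0192) and N deficiency 7.09-fold lower than K deficiency (adjusted p = 0.0206). Both were lost when K deficiency replicate 1_3 or 7_9 was left out, the first also without P deficiency replicate 1_3 or 7_9 (up to 0.0715) and the second without N deficiency replicate 4_6 or 7_9 (up to 0.0836). Against the control it was 6.4-fold lower under P deficiency (adjusted p = 0.0325) and 5.05-fold lower under N deficiency (adjusted p = 0.048). These calls were lost without any 1 library of the deficiency or without control replicate 1_3 or 7_9 (up to 0.123 and 0.171). For N deficiency the gene did not pass in the authors' deposited table (adjusted p = 0.0715). The read counts were low, at 4 to 8 per P deficiency library, 2 to 15 per N deficiency library and 32 to 93 per K deficiency library, against 14 to 65 in the control.

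Another 5 kinase genes passed in P deficiency. LOC100281326, described as kinase 1, stood at 2.66, 4.32 and 3.39 FPKM in P deficiency, against 7.75, 6.69 and 6.40 FPKM in the control, 2.01-fold lower (adjusted p = 0.012, lost without control replicate 1_3 at 0.0556). Its N deficiency libraries, at 8.93, 12.5 and 9.37 FPKM, lay above the control libraries, but that difference passed on recovered reads alone (limma adjusted p = 0.107). N deficiency was 2.97-fold higher than P deficiency (log2 1.34 ± 0.20, adjusted p = 0.00199), in all 14 alternatives. P deficiency was 1.99-fold lower than K deficiency (adjusted p = 0.0274), a call lost without K deficiency replicates 1_3 or 4_6 or P deficiency replicates 1_3 or 7_9 (up to 0.093).

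LOC100193758, a putative CBL-interacting kinase, stood at 9.91, 18.3 and 13.1 FPKM under P deficiency, against 21.9, 23.3 and 25.6 FPKM in the control. K deficiency, at 26, 28.4 and 23.6 FPKM, was also above all P deficiency libraries. N deficiency, at 16.1, 23.2 and 15.4 FPKM, overlapped P deficiency and the control and lay below all K deficiency libraries. P deficiency was 1.72-fold lower than the control (adjusted p = 0.0214) and 1.89-fold lower than K deficiency (adjusted p = 0.0214). The first call was lost without P deficiency replicate 1_3 or 7_9 or control replicate 1_3 or 4_6 (up to 0.0756). The second was lost without P deficiency replicate 1_3 or 7_9 or K deficiency replicate 1_3 or 4_6 (up to 0.0695).

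LOC100280653 is described as kinase 11, the number of an Arabidopsis kinase that inhibits the plasma membrane proton pump. It stood at 4.17, 5.88 and 5.50 FPKM under P deficiency, against 9.23, 12.9 and 7.13 FPKM in the control, 1.88-fold lower (adjusted p = 0.0143, lost without P deficiency replicate 1_3 at 0.0543). The authors' deposited table did not call that difference (adjusted p = 0.103). K deficiency (6.96 to 7.88 FPKM) and N deficiency (6.41 to 7.88 FPKM) overlapped the control. pco062034(27) is described as kinase 6, the number of a kinase that works with CBL4 on the potassium channel AKT2 in Arabidopsis. It stood at 12.4, 10.7 and 8.6 FPKM under P deficiency, against 30.2, 12.9 and 18.7 FPKM in the control and 20.3, 23.6 and 23.6 FPKM under K deficiency. P deficiency was below both without overlap, 1.95-fold lower than the control (adjusted p = 0.0473) and 2.13-fold lower than K deficiency (adjusted p = 0.0391). Leaving out any 1 P deficiency library, control replicate 1_3 or 7_9 (up to 0.176) or any 1 K deficiency library (up to 0.131) ended these calls. In the authors' deposited table the difference of pco062034(27) from the control did not pass (adjusted p = 0.161).

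The exception in direction was cl63836_1, described as kinase 10, at 12.2, 15.9 and 12.1 FPKM under P deficiency, against 6.78, 7.12 and 9.94 FPKM in the control. K deficiency, at 8.09, 7.15 and 7.02 FPKM, also lay below all P deficiency libraries. P deficiency was 1.69-fold higher than the control (adjusted p = 0.0131, lost without control replicate 1_3 at 0.0629) and 1.81-fold higher than K deficiency (adjusted p = 0.0169, lost without K deficiency replicate 4_6 or 7_9, up to 0.0584). Against the control the authors' deposited table did not call cl63836_1 (adjusted p = 0.0605) and called 0 members higher in P deficiency.

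A further pair of kinase genes passed in N deficiency. pco122768, described as kinase 20, stood at 6.41, 8.30 and 9.51 FPKM in N deficiency, against 4.07, 6.07 and 2.63 FPKM in the control, and rose 1.90-fold (adjusted p = 0.0245). It was lost when replicate 4_6 or 7_9 of N deficiency or replicate 1_3 or 7_9 of the control was left out (up to 0.0762) and under median-ratio scaling. In the authors' deposited table pco122768 did not pass (adjusted p = 0.0585). LOC100383954, a putative CBL-interacting kinase, stood at 12.2, 12.7 and 13 FPKM in N deficiency, against 17, 16.8 and 15.6 FPKM in the control. It was 1.3-fold lower without overlap (adjusted p = 0.0222), a call lost without N deficiency or control replicates 1_3 or 4_6 (up to 0.0849). The authors' deposited table did not call it (adjusted p = 0.339).

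A pair of genes made up most of the kinase transcript level and did not pass in any comparison. LOC100280939 (described as kinase 11) and LOC100285495 (described as kinase 15) together held 57.8% of the summed mean FPKM of the 27 kinases. LOC100280939 stood at 226, 389 and 377 FPKM under K, 454, 381 and 570.1 FPKM under N and 346, 328 and 367 FPKM under P deficiency, against 396, 339 and 282 FPKM in the control. LOC100285495 stood at 294, 409.7 and 449.8 FPKM under K deficiency, 295, 265 and 436 FPKM under N deficiency and 373, 318 and 403 FPKM under P deficiency, against 359, 526 and 319.8 FPKM in the control. For both genes every deficiency overlapped the control, with log2 differences of -0.06, 0.46 and 0.05 (SE 0.23) and of -0.05, -0.27 and -0.11 (SE 0.25) for K, N and P deficiency. Differences of the size of these errors could not be told from none.

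Next in abundance among genes that passed in no comparison with the control were LOC100284454, cipk31 and LOC100285849, all described as CIPK-like protein 1, and LOC100281511, described as kinase 15. LOC100284454 averaged 59.3 ± 8.77 FPKM under K deficiency, 66.8 ± 7.32 under N deficiency and 46.7 ± 3.31 under P deficiency, against 58.2 ± 8.31 FPKM in the control. cipk31 ranged from 22.8 to 41.5 FPKM over all libraries and LOC100285849 from 9.84 to 21.9 FPKM. LOC100281511 averaged 2.21 ± 0.956 FPKM in P deficiency, against 4.13 ± 0.127 FPKM in the control (adjusted p = 0.0551) and 4.85 ± 0.891 FPKM in K deficiency (adjusted p = 0.0439, 0.0506 with the replicate label as a block, up to 0.144 without 1 library and lost without any 1 K deficiency library or P deficiency replicate 1_3 or 7_9). It passed against the control on recovered reads, under median-ratio scaling, without P deficiency replicate 4_6 and in the authors' deposited table.

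**Figure D4:**
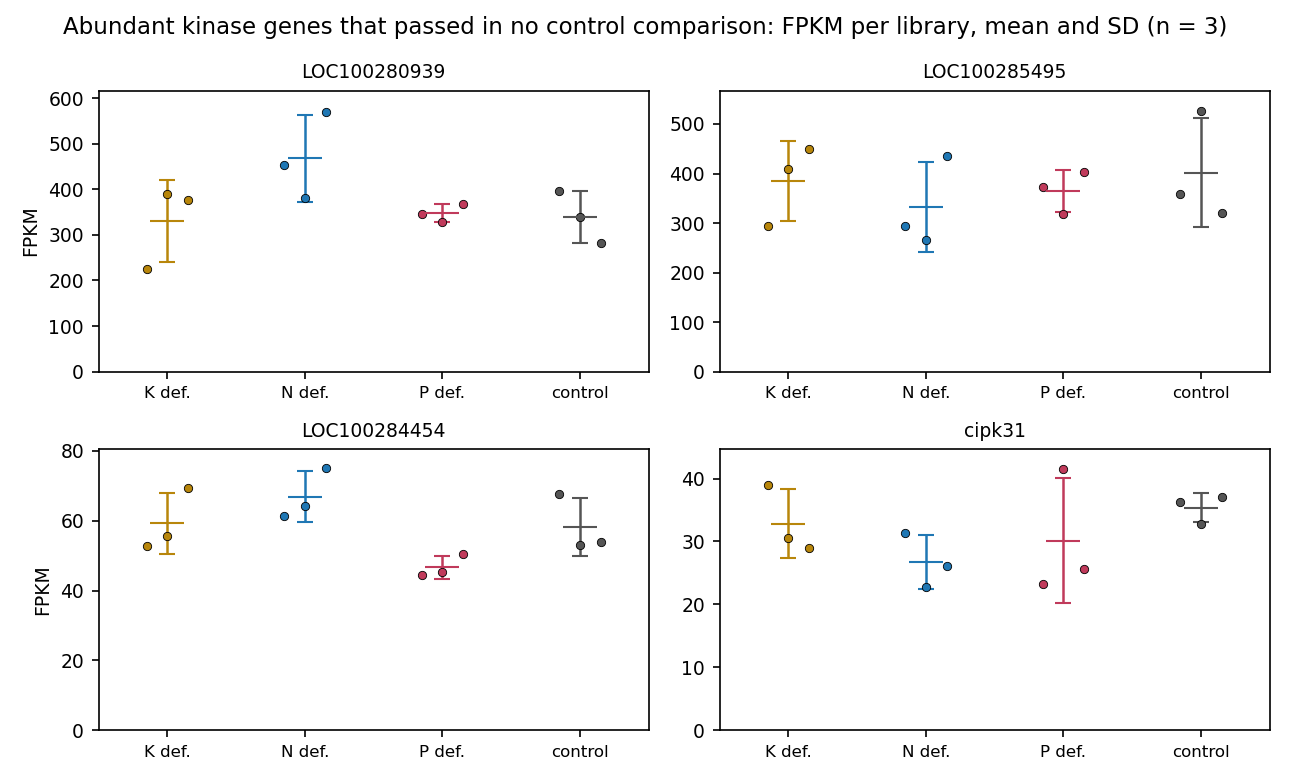
FPKM of 4 kinase genes with high levels that passed in no comparison with the control, in each library (points) with group mean and SD (bars, n = 3), on linear axes from 0. The groups of LOC100280939 and LOC100285495 overlap between 226 and 570.1 FPKM.

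The remaining 4 kinase genes were low. LOC100274837 and LOC100382276 ranged from 1.78 to 6.86 FPKM and passed in no comparison, although LOC100274837 passed for K deficiency without its replicate 4_6. Its 6.86 FPKM in K deficiency replicate 7_9 stood on 259 reads, and 3.36 FPKM in replicate 4_6 on 181. CBL1 went the other way, at 20.2 FPKM on 1183 reads in replicate 7_9 and 23.8 FPKM on 1159 in replicate 4_6. Reads per FPKM in K deficiency replicate 7_9 were thus lower than in 4_6 for some members and higher for others. The reason was not tested. The authors' deposited table gave LOC100274837 an adjusted p of 0.591 for K deficiency. LOC100193569 stood at 0.782, 0.960 and 1.17 FPKM in P deficiency, against 0.290, 0.210 and 0.316 FPKM in K deficiency. It was higher in P than in K deficiency (log2 0.63 ± 0.15, adjusted p = 0.0248), lost without any 1 K deficiency library or P deficiency replicate 7_9 (up to 0.0947), on 82 to 103 reads against 20 to 27. LOC100384585 was too low to test, at 0.0356, 0.0535 and 0.143 FPKM in N deficiency, 1, 3 and 7 reads, against 0.527, 0.482 and 0.236 FPKM in the control, 25, 24 and 13 reads. In the authors' deposited table it was called lower in N deficiency (adjusted p = 0.0302).

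Direct comparisons test whether the deficiencies differ from each other. P deficiency against K deficiency gave 11 calls among the 34 genes, 9 lower and 2 higher, where 9.23% of all tested genes passed (6.29% lower, 2.95% higher). N deficiency against K deficiency gave 5 calls, all lower (9.81% of all genes passed, 5.93% lower and 3.88% higher). N deficiency against P deficiency gave 2 higher and 2 lower (11.3% passed, 5.8% higher and 5.47% lower), 3 higher and 1 lower under median-ratio scaling, and 5 higher and 1 lower on recovered reads. Beside those given above, the sensor gene LOC100285616 was 1.59-fold lower in P than in K deficiency (adjusted p = 0.042, and 0.0589 with the replicate label as a block) and 1.52-fold lower in N than in K deficiency (adjusted p = 0.049). LOC100281650 was 1.62-fold lower in P than in K deficiency (adjusted p = 0.0169). Of N against P deficiency, LOC100284454 was 1.43-fold higher (adjusted p = 0.0488) and LOC100383954 was 1.27-fold lower (adjusted p = 0.0488). Several of these rested on single libraries. The 2 calls of N against P deficiency were each lost without any 1 of the 6 libraries (up to 0.149 and 0.144), and so was LOC100285616 for P against K deficiency (up to 0.14). For N against K deficiency LOC100285616 was lost without any 1 K deficiency library or N deficiency replicate 4_6 or 7_9 (up to 0.167), with a pseudocount of 0.1 and under median-ratio scaling. LOC100281650 was lost without K deficiency replicate 4_6 or P deficiency replicate 7_9 (up to 0.0713). The number of calls for P against K deficiency was 3 when K deficiency replicate 4_6 or P deficiency replicate 7_9 was left out, and 5 when K deficiency replicate 1_3 or 7_9 or P deficiency replicate 1_3 was. For N against K deficiency it was 3 when K deficiency replicate 1_3 or 7_9 or N deficiency replicate 4_6 or 7_9 was left out. For N against P deficiency it was 2 when replicate 1_3 of either, N deficiency replicate 4_6 or P deficiency replicate 7_9 was left out.

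Other calcium sensors and signalling kinases are given by their counts and, for each comparison with the control, by the 2 genes with the smallest p. Of 18 tested calmodulin and calmodulin-like genes, 2 passed in N and 2 in P deficiency, all higher. That is 11.1% in each, where 19.0% and 23.4% of all tested genes passed. For K deficiency limma called 0, with 1 at an unadjusted p under 0.05 and 0 on recovered reads. The smallest p values belonged to calmodulin (2.24-fold higher) and pco105720b (1.7-fold) in N deficiency and to LOC100381315 (1.47-fold) and calmodulin (1.51-fold) in P deficiency. In K deficiency LOC100216594 and LOC100280813 had ratios of 1.43 and 0.577 to the control and did not pass.

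Of 24 tested calcium-dependent protein kinases, which carry their own calcium sensor, 4 rose and 1 fell in N deficiency, 4 rose and 2 fell in P deficiency, and 1 rose and 2 fell in K deficiency. Called were 20.8% of them in N, 25% in P and 12.5% in K deficiency, near the 19.0%, 23.4% and 8.72% of all tested genes. LOC100193514 (1.53-fold) and CDPK1 (1.83-fold) were higher in N deficiency. LOC100285607 was 2.88-fold higher and cdpk1 1.79-fold lower in P deficiency. In K deficiency LOC100285607 was 1.66-fold higher and LOC100277352 was 1.92-fold lower. SnRK1 and SnRK2 are energy and abscisic acid kinases of the family to which CIPKs also belong. The list of 21 genes was taken by description and also holds a regulatory subunit. Of these genes, 3 rose and 3 fell in N deficiency, 2 rose and 3 fell in P deficiency, and 2 passed in K deficiency, both lower. For N, P and K deficiency this was 28.6%, 23.8% and 9.52% of the list, where 19.0%, 23.4% and 8.72% of all tested genes passed. LOC100191280 was 2.69-fold, 3.61-fold and 2.28-fold lower for K, N and P deficiency. LOC100191972 (SnRK2.10) was 1.54-fold lower for K and 1.61-fold lower for P deficiency. LOC100285804, described as a regulatory subunit of SNF1-related kinase, was 21.6-fold lower in N deficiency. For N deficiency the median log2 fold change was 0.11 over the calmodulins, 0.34 over the calcium-dependent kinases and -0.02 over SnRK1 and SnRK2, beside -0.38 over the 26 tested CIPK genes.

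Among 50 tested protein phosphatases 2C, whose members ABI1 and ABI2 bind CIPKs in Arabidopsis, 11 fell and 2 rose in N deficiency, 17 passed in P deficiency and 7 in K deficiency, all of these lower. The shares called were 26% in N, 34% in P and 14% in K deficiency, beside 19.0%, 23.4% and 8.72% of all tested genes. Orphan337, described as phosphatase 2C 37, was 30.3-fold lower in N and 20.6-fold lower in P deficiency. DBP1 was 6.05-fold lower in P deficiency, and LOC100285223, described as ABI1, was 6.47-fold lower in K deficiency. LOC103646787, another phosphatase 2C 37, averaged 0.351 ± 0.325 FPKM in K deficiency, against 5.54 ± 2.01 FPKM in the control. In N deficiency it was listed at 0 in replicates 1_3 and 4_6 and at 0.112 FPKM in replicate 7_9.

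Potassium, nitrate and ammonium transport proteins are among those that CIPKs act on in Arabidopsis. Of 26 tested potassium channel and transporter genes, 5 rose and 1 fell in K deficiency, 2 rose and 4 fell in N deficiency, and 7 passed in P deficiency, all lower. Their shares called were 23.1% for K, 23.1% for N and 26.9% for P deficiency, where 8.72%, 19.0% and 23.4% of all genes passed. LOC100281406, described as potassium channel AKT2/3, was 3.71-fold higher and HAK20 was 3.22-fold higher in K deficiency. HAK24 was 6.0-fold lower in N and 3.81-fold lower in P deficiency, LOC100279933 was 5.1-fold higher in N deficiency, and HAK18 was 1.72-fold lower in P deficiency. Another 28 tested genes were taken by descriptions or names of nitrate, NRT1/PTR family or ammonium transporters. Of these, 11 rose and 2 fell in N deficiency, and 3 rose and 6 fell in P deficiency. In K deficiency 2 passed, both higher. Their shares called were 46.4%, 32.1% and 7.14% for N, P and K deficiency, beside 19.0%, 23.4% and 8.72% of all genes. nrt2.2 (20.4-fold) and nrt2 (23.7-fold) were higher in N deficiency, and LOC100279304, an ammonium transporter (1.7-fold), and nrt2.2 (2.19-fold) in K deficiency. LOC100191837, described as NRT1/PTR FAMILY 5.2, was 2.67-fold higher in P deficiency. LOC100384152, described as NRT1/PTR FAMILY 6.1, was 3.34-fold lower there. What these 2 proteins carry was not tested.

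Of 10 sodium/proton and cation/proton exchangers, which belong to separate families, 1 rose and 1 fell in K deficiency, 2 rose and 2 fell in N deficiency, and 2 rose and 4 fell in P deficiency. That is 20%, 40% and 60% of the 10 genes, beside 8.72%, 19.0% and 23.4% of all tested genes. LOC103633540 was 3.13-fold, 6.33-fold and 4.15-fold lower for K, N and P deficiency. pco137126, a vacuolar exchanger, was 1.83-fold higher for K and 2.11-fold higher for N deficiency, and LOC100383429 was 1.65-fold lower for P deficiency. Of 4 calcium channel and pump genes, 2 passed in P deficiency, the glutamate receptor LOC100279951 (2.13-fold lower) and the calcium pump LOC103640509 (1.43-fold lower). For K and N deficiency limma called 0 of these, with 0 at an unadjusted p under 0.05 in each. Recovered reads gave 0 and 1. Of all tested genes 8.72%, 19.0% and 23.4% passed in K, N and P deficiency, and 4 genes are few for a share. The ratios to the control were 1.2 for gpm871 and 1.28 for LOC100279951 in K deficiency, and 1.34 for LOC100279951 and 1.2 for LOC100191751 in N deficiency.

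**Figure D5:**
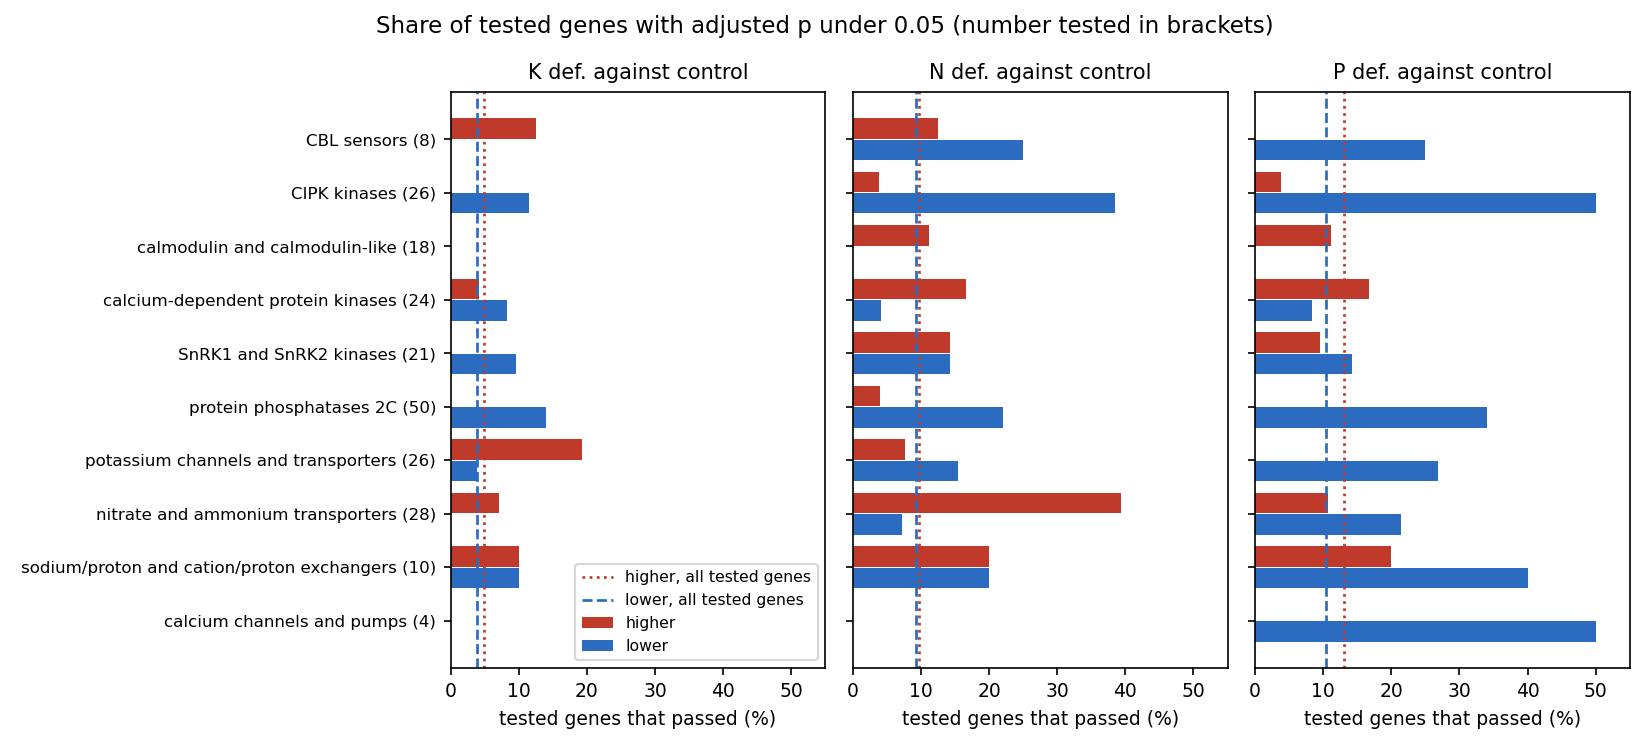
Share of tested genes (%) with an adjusted p under 0.05 in each list, for K, N and P deficiency against the control, with red bars for higher and blue bars for lower genes and the number tested in brackets. Dotted red and dashed blue lines give the shares of all tested genes that were higher and lower. Blue bars of the CIPK kinases reach past the dashed line in K, N and P deficiency (3, 10 and 13 of 26 genes). Those of some other lists do too, such as the phosphatases 2C (7, 11 and 17 of 50 genes).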

How the data were processed

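Root RNA-seq of 12 libraries was deposited as 3 tables, each setting a deficiency beside the control. Per the file headers they hold FPKM per library, mean normalized counts per group (a signal), a fold change (ratio) and its log2, and p-values with adjusted p. The tables' names credit DESeq. Which aligner, genome build or annotation was used is not given in the sources used here. Control columns were identical in all tables, and 0 per-library columns were unmatched.

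Log2(FPKM + 1) was fitted with limma 3.58.1 in R 4.3.3, with an intensity trend, 12 libraries and group as the only term. Genes with 0.5 FPKM in at least 3 libraries (24311) were tested, and p-values were adjusted by the Benjamini-Hochberg method per comparison. The fit was tested on simulated data. Reads were recovered from the deposited group means as whole reads divided by size factors, for 99.8% to 100% of genes with a mean above 0. They served for the read sums per library and for limma with voom weights. All 35 gene IDs were found in RefSeq's table of assembly Zm-B73-REFERENCE-NAM-5.0, used for names and gene order only. Members, lists and tests were chosen with earlier results of these data known. Every called member, every sensor and the abundant members are named, and the 2 genes with the smallest p in each comparison with the control are named from each other list. After removal of group means, all 3 same-label pairs of P and K deficiency correlated above 0.1 (0.106 to 0.202), so for P minus K deficiency the fit with the replicate label as a block is given where it changes a call. In the other comparisons 1 or 2 of 3 pairs did, and the labels were not treated as pairs. Further steps ran in pandas 2.3.3 and numpy 2.4.6 under Python 3.11.15, and plots in matplotlib 3.10.9. Alternatives were other pseudocounts, filters, scaling, libraries and voom, and the authors' p.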

Additional observations from a re-analysis of the deposited data

How the results depend on the processing

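No called difference of a member changed sign under any alternative run. In K deficiency against the control, where 4 members passed, 0 calls held in all 15 alternatives. In N deficiency 4 of 14 did, in P deficiency 7 of 16, and directly 3 of 5 for N minus K, 2 of 4 for N minus P and 2 of 11 for P minus K deficiency. Counts of members called moved by over 1.5 times in these cases. In K deficiency the count was 7 with a pseudocount of 10, 1 with the 6 libraries compared and 8 with voom on recovered reads. In N deficiency it was 6 with the 6 libraries compared and 7 in the authors' deposited table. In P deficiency it was 9, and for N minus P deficiency 2, with the 6 libraries compared. Without 1 library the counts ran from 0 to 5 for K, 5 to 13 for N and 9 to 16 for P deficiency, and from 3 to 5 for N minus K, 2 to 3 for N minus P and 3 to 9 for P minus K deficiency. The share of all genes that passed moved too. Without 1 library it ran from 4.06% to 9.58% for K, 11.4% to 18.1% for N and 9.86% to 25.9% for P deficiency, and from 5.62% to 7.81%, 5.24% to 13.1% and 3.88% to 10.9% for N minus K, N minus P and P minus K deficiency. The lowest shares against the control came without control replicate 1_3. In the authors' table it was 5.57%, 11.1% and 10.7% for K, N and P deficiency, and with the 6 libraries compared 13.6% for P and 5.84% for N minus P deficiency. Over all alternatives the other lists' counts for K, N and P deficiency ran from 0 to 0, 1 to 4 and 0 to 3 (calmodulins), 0 to 3, 1 to 7 and 2 to 7 (calcium-dependent kinases), 1 to 4, 4 to 8 and 2 to 7 (SnRK1 and SnRK2) and 3 to 10, 10 to 15 and 12 to 20 (phosphatases 2C). They ran from 1 to 7, 4 to 8 and 5 to 10 (potassium), 0 to 3, 10 to 14 and 5 to 9 (nitrate and ammonium), 1 to 2, 2 to 4 and 2 to 6 (exchangers) and 0 to 0, 0 to 1 and 0 to 3 (calcium channels and pumps). With the replicate block 4, 13 and 15 members passed in K, N and P deficiency, where 7.97%, 18.7% and 22.9% of all genes did. For N minus K, N minus P and P minus K deficiency 4, 3 and 9 members passed, beside 9.85%, 11.4% and 8.90% of all genes. The block changed single calls. It lost CBL2-1 in K deficiency, CBL2-2 in N and P deficiency, LOC100285616 for N minus K, LOC100284454 and LOC100383954 for N minus P, and LOC100281511 and LOC100285616 for P minus K deficiency. It gained LOC100281661 in K deficiency and LOC100281650 for N minus P deficiency. Over all groups 10 of 18 same-label pairs correlated above 0.1 (-0.388 to 0.334), and 4 of 12 libraries were closest to their own label. The voom fit and the authors' table were added after seeing the data. The cause of these changes was not tested. Members below about 1 FPKM rest on few reads, which limits what they show.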
